A study of Mus musculus with 22 samples.

Results

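The comparison set endothelial cells of Plxnd1 knockout mouse embryos against those of wild-type embryos, across all genes. Its 5 libraries, of 22 in the series, were chosen by their labels: wild type (WT) batches 1 and 3, and Plxnd1-KO batches 1, 2 and 3. All came from E12.5 mouse embryos. Spinal cord with its meninges was pooled by genotype and dissociated, and cells positive for Kdr-Cherry, a red reporter of the VEGF receptor gene Kdr, were sorted, so control and knockout cells both carried the reporter. The strain, the number of embryos in a pool and the deleted part of Plxnd1 are not given in the sources used here. The file labelled wild type batch 2 was identical to that of knockout batch 1 over all 55376 genes, while the next most similar of 231 pairs of files differed in 24532 genes, and it was left out. Wild type therefore had n = 2 and the knockout n = 3, and the batch number paired the libraries of batches 1 and 3. The 5 libraries held 20680902 to 26930214 counts. Nothing says how the pools of a batch were related, and the p-values speak only to the variation among these libraries.

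Plxnd1 encodes plexin-D1, a cell-surface receptor for class 3 semaphorins, above all Sema3E. Ligand binding activates a domain that switches off small Ras-family GTPases, which loosens integrin adhesion and turns growing vessels away from tissue that makes semaphorins. In the embryo the receptor is concentrated in endothelial cells, and mice without it have misplaced vessels and heart outflow defects. Glycolysis, which several of the results concern, is the main energy source of sprouting endothelial cells.

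Levels are CPM, counts scaled by TMM-adjusted library size, and values run in the order wild type batch 1, wild type batch 3, then knockout batches 1, 2 and 3. The edgeR quasi-likelihood test without pairing called 0 of 18209 genes at an adjusted p of 0.05, and 431 had an unadjusted p under 0.05 (2.37%). With libraries paired by batch edgeR called 180 genes (0.989%). For 175 of these, 0.961% of the genes tested, both pair differences had the sign of the fold change, and only these are said to have risen (138 genes, 0.758%) or fallen (37 genes, 0.203%). That test rests on 1 residual degree of freedom, because knockout batch 2 has no partner and gives no pair difference. The SE printed with a fold change is its size over the square root of the test's F statistic. The fit pools variance estimates across genes, so this SE does not measure the spread between the 2 pairs, which can be wider. Unpaired DESeq2 called 32 genes (0.176%), 26 higher and 6 lower, and all 32 were among the 175. These 32 genes are the core of what follows. In all 32 the 3 knockout libraries lay on one side of both wild-type libraries, as they did upwards in 1133 (6.22%) and downwards in 1389 (7.63%) of all genes.

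**Figure D1:**
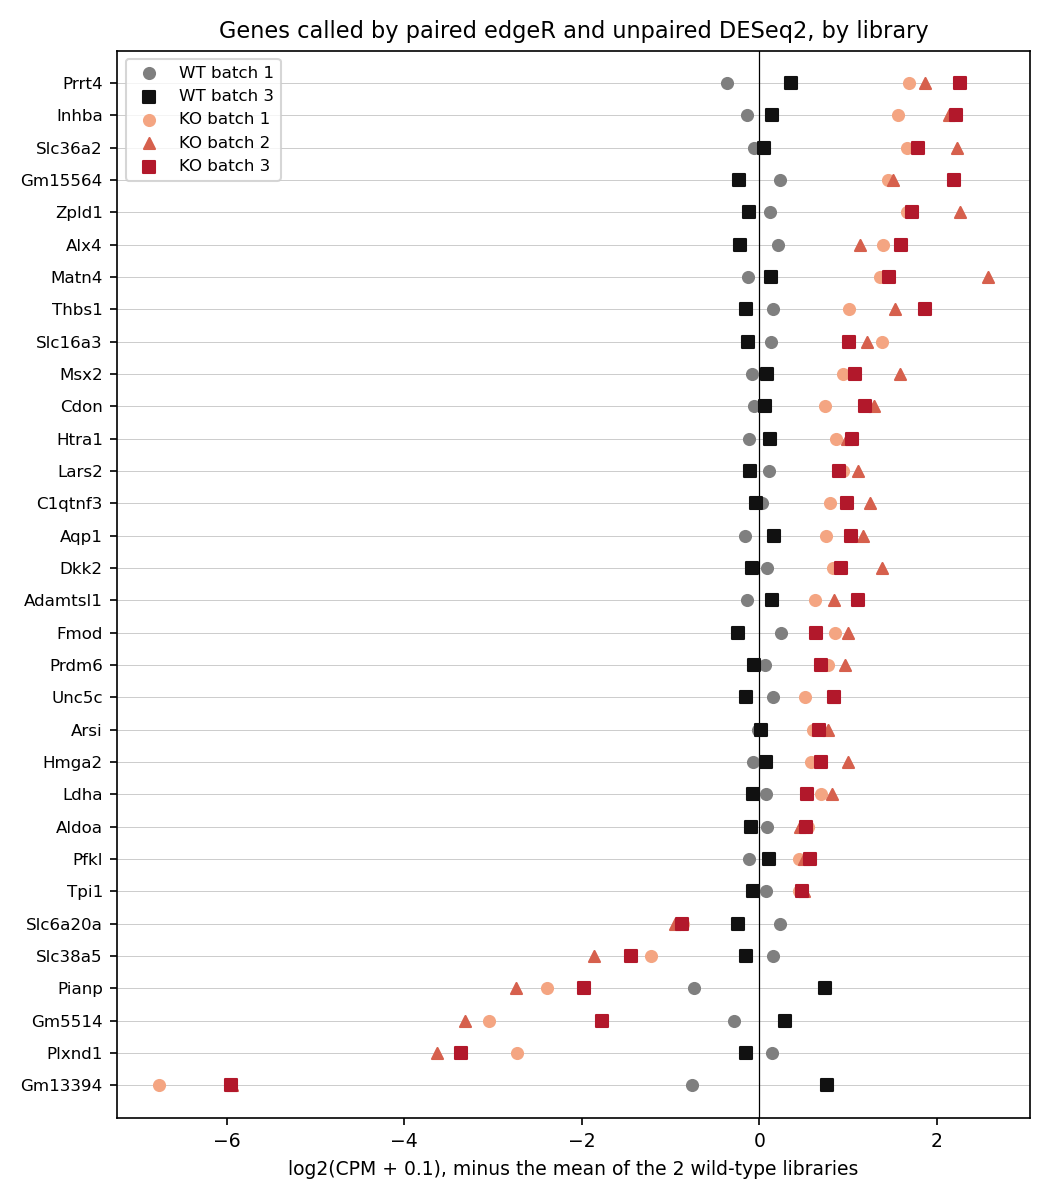
Level of the 32 genes called by both paired edgeR and unpaired DESeq2 in each of the 5 libraries, as log2(CPM + 0.1) minus the mean of the 2 wild-type libraries; grey and black points are wild type, red shades are knockout. The knockout points of the 26 higher genes lie to the right of both wild-type points, and those of the 6 lower genes to the left, with Gm13394 and Plxnd1 farthest.

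Plxnd1 (chr6:115954811-115995005, minus strand, GRCm38) was at 222 and 181 CPM against 30.1, 16.1 and 19.5 CPM. The highest knockout library was far below the lower wild-type library. The pair differences were -2.88 and -3.21 on the log2 scale, and the paired fold change was -3.04 ± 0.11 (SE; edgeR adjusted p = 5.52e-15). Counts cover all exons, so the remaining reads do not say whether a protein is made.

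The label of the cells was checked on 22 endothelial genes. Kdr, the gene of the sort reporter, was at 276, 167, 207, 105 and 170 CPM. Pecam1, an adhesion molecule of endothelial junctions, was at 115, 68.0, 115, 60.9 and 92.7 CPM, and Cdh5, the cadherin of those junctions, at 202, 157, 172, 102 and 169 CPM. The 3 genes were present in every library, their groups overlapped, and none passed (adjusted p = 0.633, 0.550 and 0.941). The 22 genes summed to 2359 and 1489 CPM against 1938, 1151 and 1466 CPM, so the share of endothelial RNA varied as much within the groups as between them. In these bulk samples fewer endothelial cells and less RNA per cell cannot be told apart. Other cells were present too. The 15 meningeal fibroblast genes, led by the collagens Col1a1 and Col1a2, summed to 11800, 11790, 11960, 11760 and 13340 CPM, and the 12 erythroid genes to 24530, 13320, 14580, 24020 and 11150 CPM.

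Of the 22 endothelial genes, 2 fell and 0 rose. Egfl7, a matrix protein secreted by endothelium, was at 114 and 67.9 CPM against 82.0, 43.3 and 46.1 CPM (paired log2 fold change -0.51 ± 0.10), with overlapping groups. The other was Cldn5, the main claudin of vascular tight junctions, which is also a member of the barrier list. In the batch 3 pair, in which the median difference of the 22 genes was 0.02, Cldn5 and Egfl7 differed by -0.63 and -0.56. In the batch 1 pair the median was -0.24 and they differed by -0.76 and -0.47.

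Barrier genes were lower in the knockout for a few members. Of 21 genes of the blood-brain and blood-spinal cord barrier, 3 fell and 0 rose, beside 0.203% and 0.758% of all genes. In 7 all knockout libraries lay below both wild-type libraries (7.63% of all genes did) and in 1 above them (6.22%). The list median was -0.33 in the batch 1 pair and -0.09 in the batch 3 pair, beside 0 and -0.02 over all genes. Slc38a5, a glutamine and histidine transporter of barrier endothelium, was at 30.2 and 24.4 CPM against 11.6, 7.41 and 9.88 CPM. The groups were well apart, and the pair differences were -1.37 and -1.30 (paired -1.34 ± 0.14, edgeR adjusted p = 5.25e-06; DESeq2 adjusted p = 1.07e-05). Slco1c1, a thyroxine transporter, was at 24.2 and 13.2 CPM against 10.2, 4.70 and 9.24 CPM, with pair differences of -1.24 and -0.51 (-0.89 ± 0.18). Cldn5 was at 153 and 97.1 CPM against 90.6, 43.2 and 62.5 CPM (-0.70 ± 0.09). Its lower wild-type value lay just above the highest knockout value. Of these 3 genes DESeq2 called Slc38a5 alone, with all libraries and without knockout batch 3. The first members of the list that did not pass were the glucose transporter Slc2a1 (279, 199, 243, 156 and 206 CPM), the lipid transporter Mfsd2a (33.5, 41.3, 32.4, 23.9 and 39.8 CPM) and the junction protein Ocln (5.66, 3.10, 2.73, 1.84 and 3.15 CPM). In each of these 3 the groups overlapped.

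A pair of other amino acid transporter genes, both of the Slc6 family, also fell. Slc6a20a, which carries proline, was at 21.2 and 15.2 CPM against 9.85, 9.21 and 9.78 CPM (-0.88 ± 0.16; DESeq2 adjusted p = 0.0291). The 3 knockout libraries were nearly equal and all below wild type. Slc6a13, a GABA transporter of the meninges, was at 285 and 283 CPM against 191, 160 and 209 CPM (-0.51 ± 0.09, edgeR adjusted p = 0.00317; DESeq2 0.0576). It was the only one of the 15 meningeal fibroblast genes that changed in the paired test, and without knockout batch 3 DESeq2 called it lower (adjusted p = 0.0124).

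Some glycolytic genes were higher in the knockout. Of 19 genes from glucose uptake to lactate export, 7 rose and 0 fell, beside 0.758% and 0.203% of all genes. Without Gapdh, whose value is uncertain for a reason given further on, 6 rose. In 10 all knockout libraries lay above both wild-type libraries (6.22% of all genes did) and in 1 below them (7.63%). That 1 was the enolase Eno2 (20.4 and 23.0 CPM against 15.6, 15.2 and 19.3 CPM, not passing). The list median was 0.22 in the batch 1 pair and 0.36 in the batch 3 pair. DESeq2 called 5 of the 19 with all libraries, beside 0.176% of all genes, and 2 without knockout batch 3. The largest change was that of Slc16a3, the lactate exporter MCT4, at 14.5 and 12.1 CPM against 34.5, 30.8 and 26.8 CPM. Every knockout library was well above wild type, with pair differences of 1.25 and 1.15 (1.20 ± 0.13, edgeR adjusted p = 5.25e-06). Ldha, the lactate dehydrogenase subunit that favours lactate, was at 177 and 161 CPM against 273, 298 and 244 CPM, with pair differences of 0.63 and 0.60 (0.62 ± 0.09).

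Of the enzymes between glucose uptake and lactate, some rose and others did not pass. Pfkl, the liver-type phosphofructokinase, was at 86.0 and 100.5 CPM against 126, 132 and 138 CPM (0.50 ± 0.09). Aldoa, which splits fructose bisphosphate, was at 199.8 and 176 CPM against 273, 257 and 270.1 CPM (0.53 ± 0.09). Tpi1, which interconverts the resulting triose phosphates, was at 141 and 127 CPM against 183, 189.5 and 187 CPM (0.47 ± 0.09). In these 3 genes the knockout libraries lay within a narrow range and the groups were apart. Eno1, an enolase, was at 44.9 and 62.3 CPM against 84.4, 75.4 and 85.6 CPM (0.68 ± 0.11; DESeq2 adjusted p = 0.269). Among members that did not pass, the hexokinase Hk2 was at 22.02, 19.3, 25.7, 26.9 and 25.8 CPM and the isomerase Gpi1 at 158, 152, 172, 165 and 163 CPM, both with groups apart, while Hk1 (74.7, 83.5, 81.4, 77.6 and 90.9 CPM) and Slc2a1 overlapped. The phosphofructokinases Pfkm (paired log2 fold change 0.07) and Pfkp (0.06), the phosphoglycerate kinase Pgk1 (0.29) and the mutase Pgam1 (0.10) did not pass either, and their groups overlapped.

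**Figure D2:**
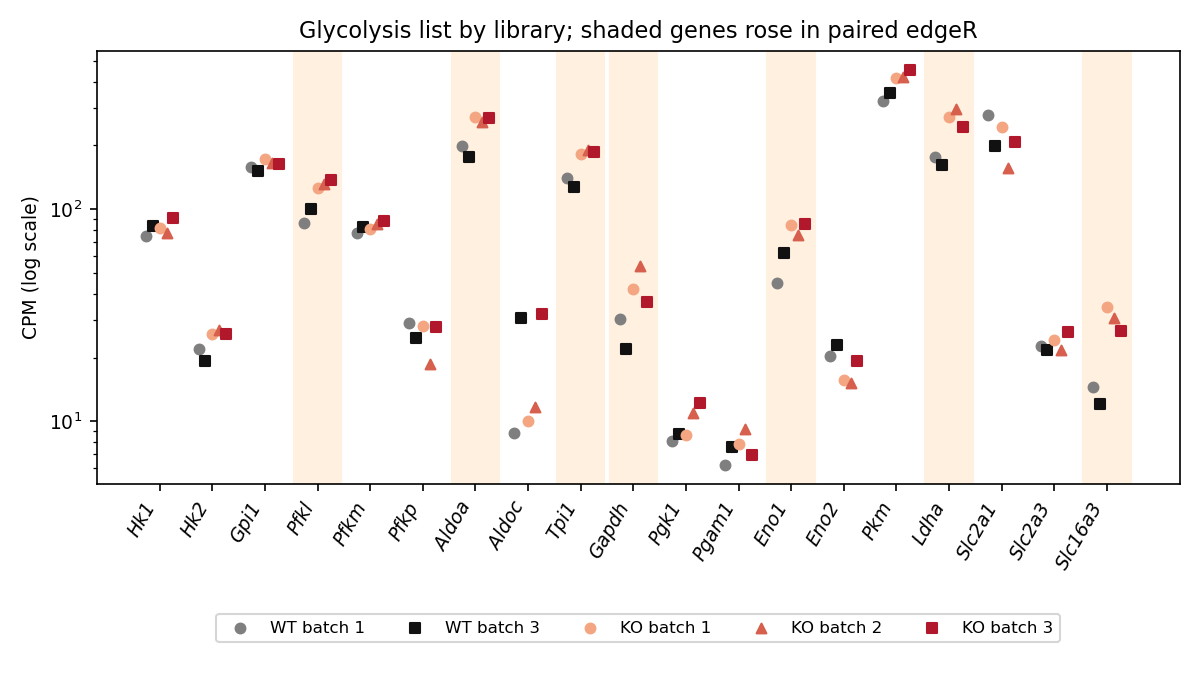
CPM of the 19 glycolysis genes in each library on a log axis, in pathway order from left to right with the glucose and lactate transporters last; grey and black are wild type, red shades are knockout. Shading marks the 7 genes that rose in paired edgeR; in each of them the 3 knockout points lie above both wild-type points.

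Ldha and Slc16a3 showed the largest change among the glycolytic genes called by both tools, so the 250 bases upstream of their start sites are shown (RefSeq windows, GRCm38.p6; Ldha chr7:46845554-46845803 and Slc16a3 chr11:120948817-120949066, both plus strand). Capitals mark ACGTG or GCGTG on either strand, the letters at the core of hypoxia response elements.
Ldha: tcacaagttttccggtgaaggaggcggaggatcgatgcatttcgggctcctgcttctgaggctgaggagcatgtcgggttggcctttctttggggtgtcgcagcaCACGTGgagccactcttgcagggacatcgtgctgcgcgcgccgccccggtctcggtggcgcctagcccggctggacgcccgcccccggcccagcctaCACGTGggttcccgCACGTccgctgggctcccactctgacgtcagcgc
Slc16a3: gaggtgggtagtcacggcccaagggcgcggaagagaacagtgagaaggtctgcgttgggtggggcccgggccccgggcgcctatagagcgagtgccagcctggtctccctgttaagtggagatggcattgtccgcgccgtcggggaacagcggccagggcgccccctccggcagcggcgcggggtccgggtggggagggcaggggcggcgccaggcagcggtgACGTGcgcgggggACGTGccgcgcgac
The search, in 1 window per gene, found these letters upstream of 5 of the 7 glycolytic genes that rose (71.4%; 4 of 6, or 66.7%, without Gapdh), of 12 of the 18 glycolysis genes with a window (66.7%), of 36 of the 90 genes with a window among all that rose (40%) and of 6817 of 12502 genes tested that had a window (54.5%). Overlapping matches on the 2 strands were counted separately, which gives 5 in Ldha and 2 in Slc16a3. In Aldoa and Tpi1 the window held none, and for Aldoa it lay 8661 bases from the outermost start in the count files' annotation.

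Of 17 other hypoxia-response genes 1 rose and 0 fell. In 7 all knockout libraries lay above both wild-type libraries (6.22% of all genes did) and in 1 below them (7.63%). The medians were 0.25 and 0.19 in the batch 1 and batch 3 pairs. P4ha2, a collagen prolyl hydroxylase, was at 8.25 and 10.8 CPM against 15.7, 20.6 and 16.0 CPM (0.75 ± 0.16). Adm, the vasodilator adrenomedullin, was at 3.96 and 2.501 CPM against 6.87, 4.44 and 4.97 CPM, with groups apart, but missed the threshold (adjusted p = 0.0687). The remaining leading members, Vegfa (206, 199, 215, 194 and 170 CPM), Bnip3 (3.77, 4.44, 5.96, 7.63 and 3.98 CPM) and Ankrd37 (2.81, 1.98, 3.31, 2.26 and 2.75 CPM), overlapped between the groups.

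Gapdh, which catalyses the step after Tpi1, cannot be read on its own. It rose in the paired test, from 30.4 and 21.9 CPM to 42.1, 53.9 and 36.4 CPM (0.60 ± 0.12; DESeq2 adjusted p = 0.472). Gm13394 (chr2:28933610-28934609), a processed pseudogene, showed the largest fall of all genes, from 8.99 and 25.8 CPM to 0.0414, 0.1504 and 0.1475 CPM, or from 243 and 692 counts to 1, 4 and 3 counts. Its 1000 bases match the Gapdh transcript (GENCODE M21, GRCm38) in 999, and a single substitution, A438C counted from the first base of that transcript and inside its coding sequence, is the one difference within those bases. The stretches around it are shown because elsewhere in the aligned part the genes read alike, and the differing base is in capitals.
Gapdh: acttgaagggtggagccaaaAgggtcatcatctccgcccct
Gm13394: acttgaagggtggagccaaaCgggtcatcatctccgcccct
Summed over both genes the levels were 39.4 and 47.8 CPM against 42.1, 54.0 and 36.6 CPM, and the groups overlapped. Gapdh lies on chromosome 6 (chr6:125161853-125166467), as does Plxnd1, while Gm13394 is on chromosome 2. Gm13394 was also lower in all 3 motor neuron pairs of the series, by -5.77, -6.67 and -7.71. Gm5514 (chr19:21937380-21938381), which matches 982 of 1002 bases of the lactate dehydrogenase gene Ldhb on chromosome 6, went from 61 and 91 counts to 6, 5 and 15 counts (-2.58 ± 0.40) and differed by -2.86, -3.01 and -3 in the motor neuron pairs. Another gene with a copy among the falls was Rps2-ps13, at 18.0 and 9.48 CPM against 7.82, 0.376 and 0 CPM, while the ribosomal protein gene Rps2 rose from 56.0 and 37.8 CPM to 84.0, 82.5 and 72.5 CPM. Values of genes with such copies are uncertain.

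Other core genes that rose had varied roles. Zpld1, a membrane protein with a zona pellucida domain, was at 9.21 and 7.80 CPM against 27.1, 41.1 and 28.1 CPM. All knockout libraries were well above wild type, with pair differences of 1.55 and 1.84 (1.70 ± 0.14, edgeR adjusted p = 1.13e-07; DESeq2 5.45e-10). Inhba, the subunit of activin A, was at 0.962 and 1.19 CPM against 3.35, 5.04 and 5.36 CPM (1.99 ± 0.28). It was the only one of 22 BMP and TGF-beta pathway genes that rose, and 0 fell, beside 0.758% and 0.203% of all genes. In 6 of the 22 all knockout libraries lay above both wild-type libraries (6.22% of all genes did) and in 2 below them (7.63%). Thbs1, thrombospondin-1, an inhibitor of angiogenesis and activator of TGF-beta, was at 36.5 and 29.4 CPM against 65.9, 94.7 and 119 CPM, with pair differences of 0.85 and 2.02 (1.44 ± 0.16). Its relative Thbs2 was at 18.0 and 21.6 CPM against 24.5, 29.0 and 38.9 CPM (0.65 ± 0.13), and Hspg2, the basement membrane proteoglycan perlecan, at 276 and 278 CPM against 357, 248 and 401 CPM (0.45 ± 0.10), with 1 knockout library below wild type. These 3 were the members of the 25-gene vascular matrix list that rose, and 0 fell, beside 0.758% and 0.203% of all genes.

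Dkk2, a secreted modulator of Wnt signalling, was at 30.8 and 27.2 CPM against 51.6, 75.5 and 54.9 CPM (0.88 ± 0.11). Cdon, a co-receptor for hedgehog ligands and netrin, was at 41.1 and 44.7 CPM against 71.8, 105 and 97.9 CPM (0.97 ± 0.10, edgeR adjusted p = 4.13e-06). Htra1, a secreted protease, was at 20.4 and 23.9 CPM against 40.2, 43.7 and 45.7 CPM (0.96 ± 0.11; DESeq2 adjusted p = 3.41e-07). In these 3 genes the lowest knockout library exceeded the highest wild-type library by more than the gap between the wild-type libraries. The matrix genes Fmod (199 and 143 CPM against 303, 337 and 263 CPM), Matn4 (1.67 and 2.02 CPM against 4.84, 11.4 and 5.21 CPM) and Adamtsl1 (12.9 and 15.8 CPM against 22.1, 25.7 and 30.9 CPM) rose as well, as did the secreted C1qtnf3 (14.4 and 13.7 CPM against 24.4, 33.3 and 27.9 CPM).

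The transcriptional regulators among them were Alx4 and Msx2, homeobox factors of cranial and limb mesenchyme, Prdm6, a regulator of smooth muscle, and Hmga2, a chromatin protein of embryonic tissue. Alx4 was at 4.70 and 3.47 CPM against 10.8, 8.99 and 12.4 CPM (1.51 ± 0.20), and Msx2 at 7.07 and 7.91 CPM against 14.4, 22.6 and 15.9 CPM (1.02 ± 0.16). These were the 2 of 12 mesenchymal homeobox genes that rose, and 0 fell. In 7 of the 12 all knockout libraries lay above wild type (6.22% of all genes did) and in 1 below it (7.63%). Prdm6 was at 24.2 and 22.1 CPM against 39.5, 45.1 and 37.3 CPM (0.73 ± 0.11). Hmga2 was at 43.1 and 47.8 CPM against 68.0, 90.5 and 73.3 CPM (0.64 ± 0.10). Of the rest, Aqp1, a water channel, was at 7.18 and 8.99 CPM against 13.6, 18.1 and 16.5 CPM, and the sulfatase gene Arsi at 37.1 and 37.7 CPM against 57.1, 64.0 and 59.8 CPM. Prrt4, at 2.40 and 4.03 CPM against 10.3, 11.6 and 15.3 CPM, had the largest rise of the core (2 ± 0.19). Slc36a2, an amino acid transporter, was at 0.407 and 0.448 CPM against 1.57, 2.37 and 1.72 CPM (1.93 ± 0.40).

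Where these genes are normally expressed was read from wild-type endothelial cells of the regional part of the series, sorted from spinal cord tissue or from the meninges (5 libraries each, counted with other settings and not compared in level with those above). Of the 26 core genes that rose, 24 were measured there, and in 12 of them (50%) all meningeal libraries exceeded all spinal ones; over all genes this held for 17.6%. In 1 of the 24 (4.17%), Slc16a3, the spinal libraries were higher, against 19.4% of all genes. Zpld1 was at 0.225 ± 0.211 CPM in cord cells against 8.48 ± 1.51 CPM in the meninges (SD, n = 5 each). Fmod was at 2.88 ± 4.44 and 153 ± 29.2 CPM, Arsi at 1.24 ± 1.23 and 30.2 ± 4.06 CPM, Prdm6 at 0.486 ± 0.612 and 16.8 ± 1.89 CPM, and Alx4 at 0.473 ± 0.255 and 5.54 ± 1.21 CPM. Slc38a5, which fell in the knockout, ran from 88.3 to 231 CPM in the cord (median 193) and from 22.5 to 56.1 CPM in the meninges (median 28.6). Over all 138 genes that rose, 131 were measured, and 40 were higher in the meninges and 38 in the cord. The summed meningeal fibroblast markers given above were level across 4 of the libraries and highest in knockout batch 3, but Col1a1 and Col1a2 dominate that sum. Of the 15 markers 1, Col1a1, had all knockout libraries above both wild-type libraries. In 3, Dcn, Slc6a13 and Tbx18, all lay below. Dcn was at 543 and 561 CPM against 393, 481 and 434 CPM. The part of such cells in the values of the core genes was not tested.

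**Figure D3:**
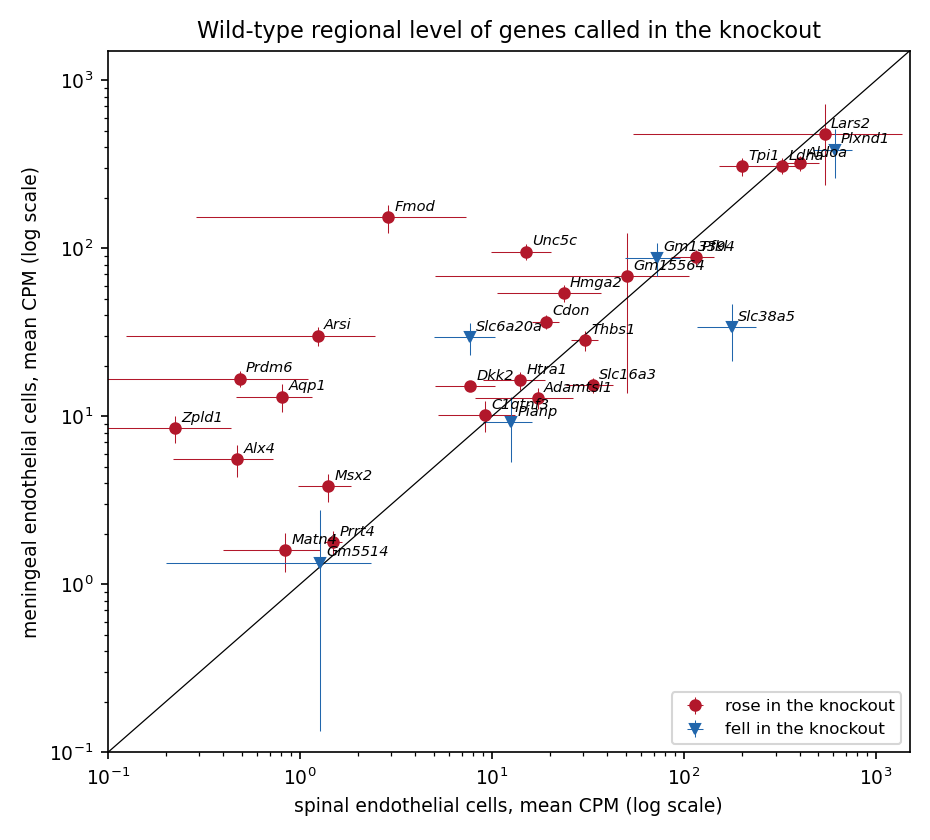
Mean CPM of the 30 core genes measured in wild-type spinal (x axis) and meningeal (y axis) endothelial cells, both on log axes; bars are the SD of 5 libraries, with lower bars shortened where the SD approaches or exceeds the mean, and the line marks equal levels. Red circles rose and blue triangles fell in the knockout: Zpld1, Alx4, Arsi, Prdm6, Fmod and Aqp1 lie far above the line, and Slc38a5 below it.

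The genes closest to plexin-D1 in its pathway showed little change. Of 8 ligands and co-receptors 1 rose and 0 fell. Sema3e, the main ligand, was at 10.9, 10.7, 8.85, 20.01 and 18.6 CPM, with knockout batch 1 below and batches 2 and 3 above wild type. Sema3c was at 104, 94.5, 88.8, 104 and 108 CPM, Sema3g, an arterial semaphorin, at 19.8, 16.8, 20.3, 14.0 and 20.7 CPM, and Sema3d at 11.2, 11.7, 11.8, 19.8 and 20.8 CPM. None of these 4 passed. Sema3a, a ligand that acts through neuropilin-1, was at 27.97 and 35.8 CPM against 35.5, 55.5 and 61.4 CPM (0.57 ± 0.12), the groups overlapping slightly. Of 8 other plexins 1 rose and 0 fell: Plxna2, at 54.2 and 93.7 CPM against 69.8, 62.0 and 129 CPM (0.41 ± 0.09). The groups overlapped, and the unpaired fold change turned to -0.17 without knockout batch 3 and to -0.10 without wild type batch 1. Plxna1 (124, 169, 156, 137 and 212 CPM), Plxna3 (110.4, 154, 122, 112 and 154 CPM) and Plxna4 (18.2, 38.3, 25.5, 27.7 and 50.2 CPM) did not pass.

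Of 32 genes of plexin signalling, which include the GTPases that the receptor acts on, regulators of actin and semaphorin adaptors, 0 rose and 0 fell, and the medians of 0.06 and 0.01 in the pairs were near those of all genes. Rras was at 28.3, 20.7, 25.6, 21.1 and 23.1 CPM, Rras2 at 40.4, 32.9, 36.4, 40.7 and 34.4 CPM, Mras at 27.3, 39.2, 28.5, 36.1 and 38.3 CPM and Rap1a at 49.0, 40.1, 41.2, 49.2 and 36.1 CPM. In each the groups overlapped. Of 10 VEGF ligands and receptors 0 rose and 0 fell. Besides Vegfa and Kdr, given above, Vegfb was at 30.1, 36.0, 36.9, 31.1 and 33.4 CPM and Vegfc at 18.2, 13.4, 17.4, 15.0 and 12.8 CPM.

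Vessel subtype genes changed in single members. Of 18 tip cell genes 1 rose and 0 fell: Apln, the ligand apelin of sprouting cells, at 24.4 and 14.4 CPM against 33.4, 17.6 and 27.8 CPM (0.69 ± 0.14). Its receptor gene Aplnr, a venous marker, fell from 154 and 100.2 CPM to 81.4, 47.9 and 74.9 CPM (-0.67 ± 0.11), with groups apart, while DESeq2 called neither (adjusted p = 1 and 0.552). Vwf, the adhesive factor of large vessels, rose from 46.6 and 26.4 CPM to 64.7, 31.4 and 64.0 CPM (0.86 ± 0.13), so that in the 10 venous and adhesive genes tested 1 rose and 1 fell. The tip cell genes Esm1 (4.48, 4.55, 4.10, 2.56 and 4.28 CPM), Angpt2 (19.1, 14.1, 12.8, 10.9 and 14.3 CPM) and Kcne3 (0.629, 0.821, 2.11, 1.05 and 1.23 CPM) did not pass. Of 15 arterial genes tested 0 rose and 0 fell; their leading members, the connexins Gja4 (38.0, 21.9, 37.7, 18.6 and 24.9 CPM) and Gja5 (10.6, 5.41, 10.6, 8.61 and 10.03 CPM), overlapped. Of 18 Notch pathway genes 2 rose and 0 fell, the receptors Notch1 (177 and 224 CPM against 237, 179.8 and 286 CPM, 0.39 ± 0.09) and Notch3 (156 and 187 CPM against 234, 179 and 263 CPM, 0.54 ± 0.09). In both, the unpaired knockout batch 2 lay within the wild-type range, and Notch2 (154, 184, 159, 171 and 270 CPM) and Notch4 (63.3, 53.3, 76.0, 34.1 and 46.8 CPM) did not pass. Notch3 is also a marker of pericytes and smooth muscle, and the only 1 of 11 such markers that rose, while 0 fell. Those markers summed to 1797, 1322, 2009, 1501 and 1617 CPM, and the part of such cells in the Notch3 values was not tested. Of 25 cell cycle genes 0 rose and 0 fell, although 18 were higher in both pairs, as were 4450 of all 18209 genes. Mki67, a marker of dividing cells, was at 306, 250, 333, 318 and 323 CPM.

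Of 25 other axon and vessel guidance genes 6 rose and 0 fell, beside 0.758% and 0.203% of all genes. Unc5c, a netrin receptor and core gene, was at 71.4 and 58.1 CPM against 91.9, 116 and 116 CPM (0.68 ± 0.11). The repellents Slit2 (50.6 and 65.7 CPM against 69.6, 75.1 and 93.2 CPM, 0.48 ± 0.09) and Slit3 (23.7 and 33.2 CPM against 40.6, 46.0 and 51.8 CPM, 0.71 ± 0.11) also had groups apart. Slit1 did not pass, with levels of 26.2, 95.0, 50.9, 39.4 and 104 CPM. For Ntn1 (52.6 and 166 CPM against 110.3, 103 and 197 CPM), Dcc (26.4 and 65.9 CPM against 33.6, 28.2 and 102 CPM) and Epha3 (26.1 and 36.0 CPM against 31.9, 64.5 and 60.8 CPM) the groups overlapped. The unpaired fold change of Dcc turned to -0.58 without knockout batch 3 and to -0.27 without wild type batch 1, and that of Ntn1 to -0.04 and -0.28. DESeq2 called Unc5c alone of the list, and none of it without knockout batch 3.

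**Figure D4:**
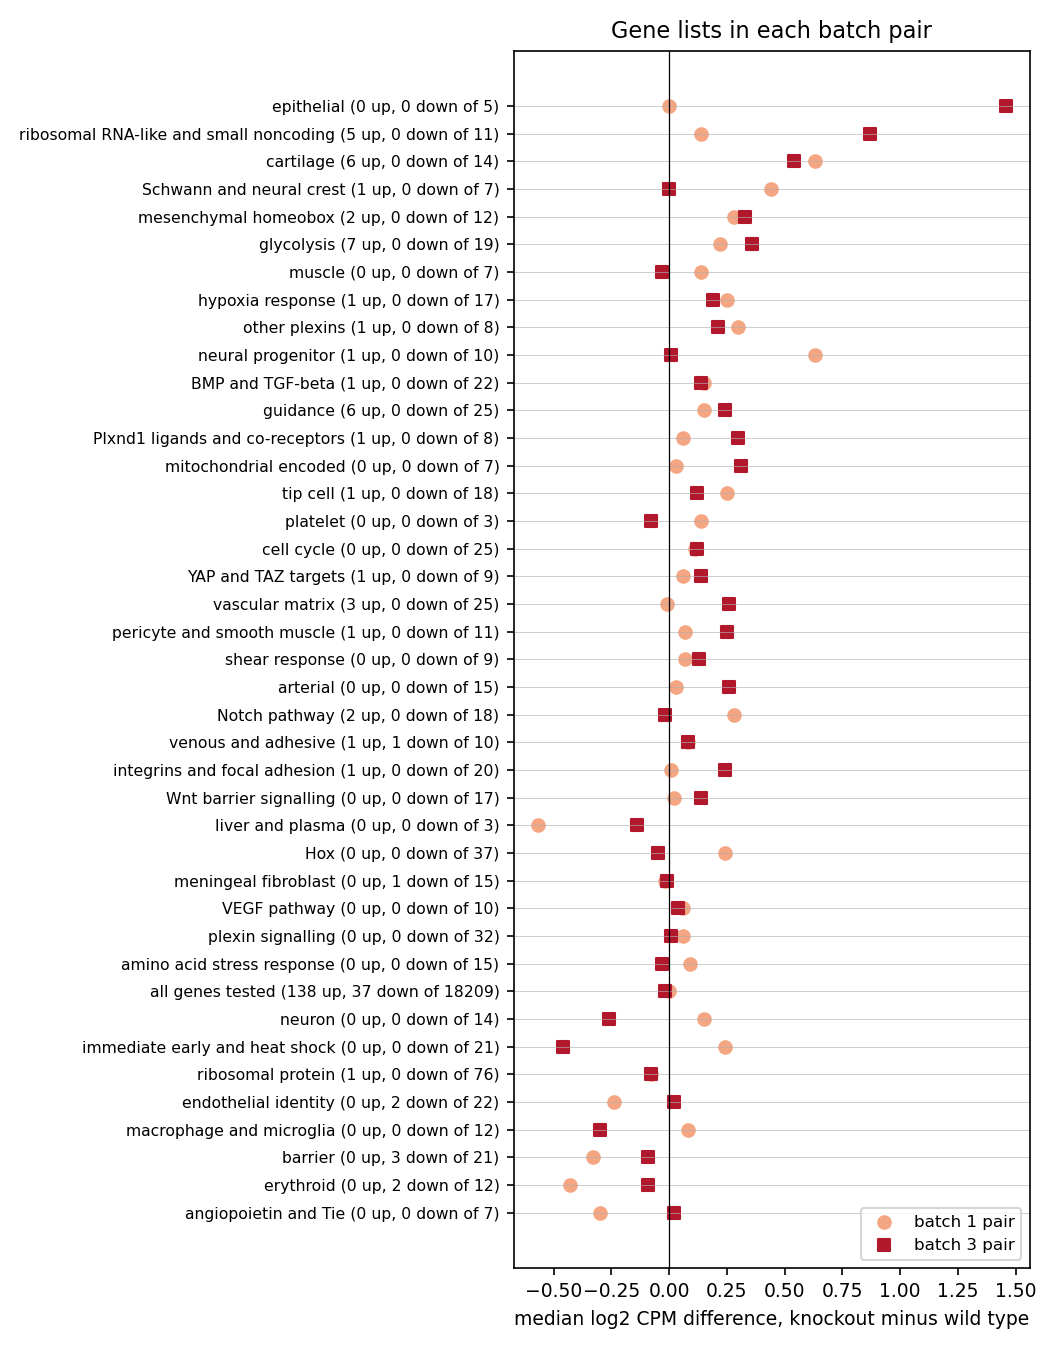
Median log2 CPM difference, knockout minus wild type, of each of 40 gene lists and of all genes in the batch 1 pair (circles) and the batch 3 pair (squares), with the numbers of members that rose and fell of those tested in paired edgeR. Glycolysis, cartilage and the mesenchymal homeobox list lie to the right of 0 in both pairs, barrier and erythroid genes to the left in both, and plexin signalling and the VEGF pathway near 0; the sex-linked list is left out.

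Markers of other cell types were among the genes that rose. Cartilage genes, made by the vertebral primordia beside the cord, had 6 of 14 members risen and 0 fallen, beside 0.758% and 0.203% of all genes. Col2a1, the cartilage collagen, was at 184 and 308 CPM against 334, 469 and 477 CPM (0.74 ± 0.10), Sox9, the chondrocyte regulator, which neural progenitors also express, at 29.6 and 59.2 CPM against 55.8, 70.9 and 88.7 CPM (0.74 ± 0.10), and the aggrecan gene Acan at 0.592 and 0.149 CPM against 1.16, 4.32 and 2.51 CPM (2.23 ± 0.49). Col9a1 (62.7 and 76.3 CPM against 83.8, 114 and 109 CPM), Col9a3 (11.1 and 15.2 CPM against 19.4, 39.5 and 30.5 CPM) and Matn4 were the others, and Sox5 did not pass. Of the 14 members, 9 were higher in both pairs and 1 was lower in both. Among others that did not pass, the batch 1 and batch 3 pairs differed by 1.09 and -0.35 for Pax1. They differed by -0.01 and -0.85 for Pax9, by 0.68 and -0.99 for Nkx3-2, and by 0.58 and -0.05 for both Col9a2 and Col11a2. In the regional libraries Col9a3 was higher in the cord. The list summed to 407 and 611 CPM against 657, 912 and 860 CPM, lower in both wild-type libraries than in any knockout library. The part of cartilage cells in the other rises was not tested.

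A set of 28 genes that rose was more than 2 times higher in wild type batch 3 than in wild type batch 1. Of the 26 measured in the regional libraries 24 were higher in the cord, beside 19.4% of all genes. Among the other 110 genes that rose, 14 of the 105 measured were. The set included Olig2, a factor of motor neuron and oligodendrocyte progenitors, at 3.81 and 11.9 CPM against 9.72, 8.61 and 18.1 CPM. Olig2 was the only 1 of 10 neural progenitor genes that rose, and of 14 neuron genes 0 rose. In both lists 0 fell. The medians in the batch 1 and batch 3 pairs were 0.63 and 0.01 for the progenitor list and 0.15 and -0.26 for the neuron list. The 10 neural progenitor genes summed to 1106, 1767, 1264, 1507 and 1780 CPM and the 14 neuron genes to 695, 1750, 787, 773 and 1541 CPM, high in both libraries of batch 3. Among muscle, macrophage, platelet and epithelial genes 0 rose and 0 fell. Of the 12 erythroid genes 2 fell, Hba-a1 (1202, 729, 884, 968 and 439 CPM) and Hbb-bs (499, 243, 240.2, 444 and 203 CPM), with groups overlapping, and their unpaired fold changes turned to 0.08 and 0.30 without wild type batch 1.

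Single libraries carried some values. Of all genes tested, 45 were more than 2 times higher in knockout batch 3 than in every other library, 41 in knockout batch 2, and 12 to 20 in each of the other libraries. In 8 called genes knockout batch 3 was that library, among them Rn7sk, a small nuclear RNA without a poly(A) tail (0.666, 0.336, 0.745, 1.32 and 52.8 CPM), Gfap, an astrocyte filament (1.59, 1.64, 1.66, 1.13 and 26.8 CPM), Bc1, a neuronal noncoding RNA (0.333, 0.261, 0.538, 0.301 and 6.39 CPM), the glial S100b (0.185, 0.933, 0.331, 1.05 and 4.87 CPM) and the chemokine gene Cxcl14 (0.407, 0.560, 1.20, 0.790 and 4.62 CPM). These rises rest largely on that library, and the unpaired fold change of Gfap turned to -0.22 without it. Without it DESeq2 called 21 of the genes tested higher and 7 lower, of which 16 and 5 were in the core. In 83 of the 138 genes that rose (60.1%) knockout batches 1 and 2 alone both exceeded wild type, as they did in 12% of all genes. The batch 1 pair was part of the test that called the 138, so a higher share follows in part from the choice.

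Some genes that carry ribosomal RNA-like sequence or give noncoding RNA were also higher. Of 11 such genes tested 5 rose and 0 fell, beside 0.758% and 0.203% of all genes. In 7 all knockout libraries lay above both wild-type libraries (6.22% of all genes did). The list summed to 978 and 999 CPM against 1079, 1289 and 1305 CPM. Besides Rn7sk, those that rose were Lars2, Gm15564, Gm26917 (50.8 and 43.8 CPM against 84.1, 77.1 and 57.0 CPM, 0.56 ± 0.10) and the mitochondrial ribosomal RNA mt-Rnr2 (159 and 177 CPM against 186, 277 and 304 CPM, 0.50 ± 0.11). Gm42418 (43.6, 27.1, 47.3, 86.6 and 49.5 CPM) and mt-Rnr1 (102, 108, 116, 169 and 139.6 CPM) did not pass, with groups apart. The part of RNA selection or quality in these and the other rises was not tested. Lars2, a mitochondrial leucine-tRNA ligase kept in this list, was at 87.1 and 75.0 CPM against 155, 174 and 150.3 CPM (0.92 ± 0.09; DESeq2 adjusted p = 1.77e-08), level across the knockout libraries. Gm15564 was at 9.55 and 6.87 CPM against 22.3, 23.2 and 37.3 CPM (1.82 ± 0.19). In the motor neurons of the series both were far higher in knockout batch 1 alone, with pair differences of 6.08, 0.03 and 0.42 for Lars2 and of 6.77, -0.42 and 0.76 for Gm15564.

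The embryos' sex differed between pools. The Y-linked Eif2s3y was at 0.074, 102, 0, 94.8 and 35.5 CPM, so batch 1 held almost no male RNA in either genotype, and the batch 3 pair compared a pool high in it with one in between. The paired test called Eif2s3y lower, and this call describes the pools. Of the remaining large falls, Pianp, a ligand of an immune receptor and expressed in neurons, was at 9.47 and 26.6 CPM against 2.94, 2.29 and 3.98 CPM (-2.25 ± 0.22, edgeR adjusted p = 1.77e-06; DESeq2 1.51e-04), and Rasgef1a at 2.44 and 1.72 CPM against 0.703, 0.677 and 0.639 CPM (-1.62 ± 0.38). Both lie within 20 Mb of Plxnd1 on chromosome 6. In that interval, which held 1.63% of the genes tested, lay 6 of the 37 genes that fell (16.2%), Plxnd1 included, and 4 of the 138 that rose (2.9%). Gapdh, Tpi1, Vwf, Slc6a13 and Apold1 are among these genes too, with Tpi1 8.86 Mb and Pianp 9.04 Mb from Plxnd1. The whole of chromosome 6 held 5.22% of the genes tested, 9 of the 37 that fell (24.3%) and 12 of the 138 that rose (8.7%). Slco1c1, Prrt4 and Aqp1 lie on it outside the interval. Vmn1r43, a vomeronasal receptor gene on the same chromosome, was at 2.59 and 3.73 CPM against 0, 4.06 and 0.0491 CPM, high in knockout batch 2, and Capn11 at 1.55 and 0.560 CPM against 0.124, 6.92 and 0.246 CPM, highest there. Their calls as lower rest on the batch 1 and batch 3 pairs.

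**Figure D5:**
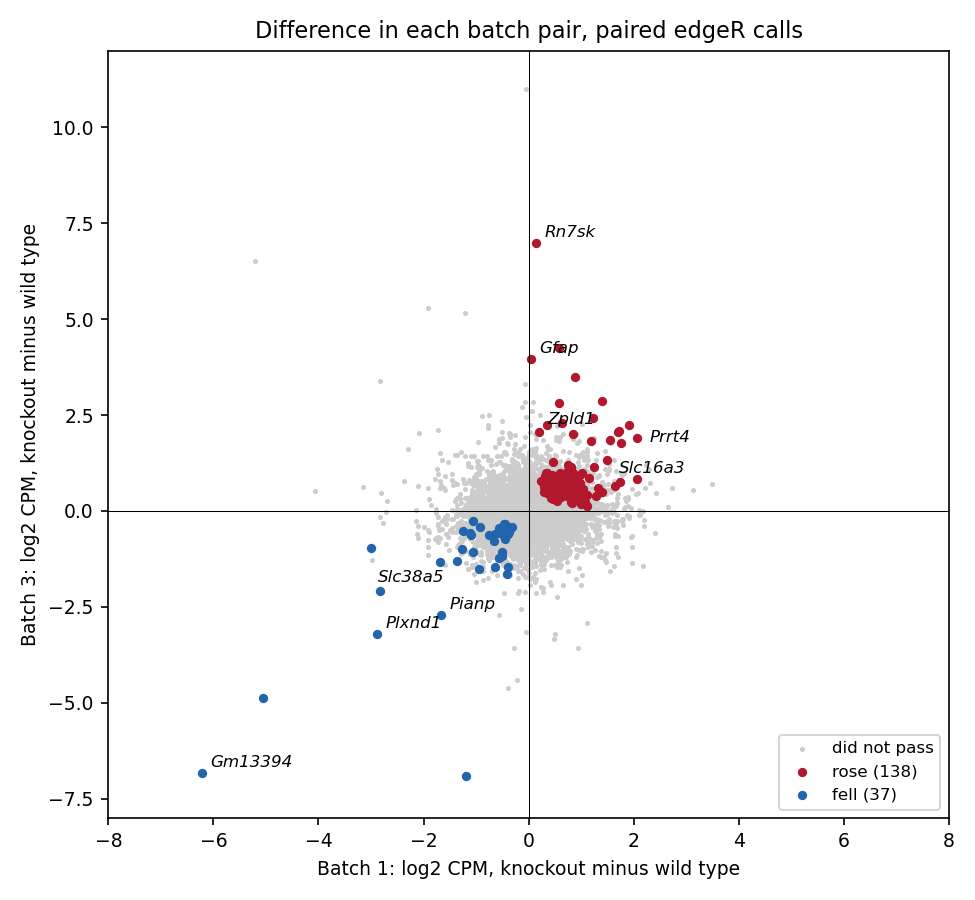
Difference in log2 CPM, knockout minus wild type, of all 18209 genes tested in the batch 1 pair (x axis) and the batch 3 pair (y axis); red and blue points rose or fell in paired edgeR. Plxnd1, Gm13394 and Pianp lie far to the lower left and Zpld1, Prrt4 and Slc16a3 to the upper right, while Rn7sk and Gfap are high in the batch 3 pair alone.

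Whether the knockout effect differed from that in motor neurons was tested as an interaction over the 11 libraries of both cell types. Without pairing edgeR called 0 of 19266 genes, and with pairing 5 (0.026%). Of these, Prrt4, Col9a3 and Tenm3 belong to the endothelial rises. Prrt4 differed by 2.06 and 1.91 in the endothelial pairs and by 0.39, 0.19 and -0.07 in the motor neuron pairs (interaction 1.83 ± 0.22, adjusted p = 0.0445). For Plxnd1 the motor neuron pairs differed by -2.71, -2.84 and -3.20, beside -2.88 and -3.21 in the endothelial pairs. Some glycolytic genes were slightly higher in the motor neuron knockout too: Ldha by 0.40, 0.36 and 0.31, Tpi1 by 0.27, 0.21 and 0.20, and Aldoa by 0.13, 0.28 and 0.12 in the 3 pairs. The paired interaction did not pass for these 3 genes (adjusted p = 0.808, 0.882 and 0.629).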

How the data were processed

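Reads of polyadenylated RNA from sorted cells were trimmed with Trimmomatic 0.39 and aligned with STAR 2.5.3a to mm10 (GRCm38), per the labels and the submitters' processing notes. Per the file headers, the authors' deposited values are raw counts per gene from featureCounts 1.6.4, summed over exons without regard to strand in the knockout series and by strand over read pairs in the regional series. Reads with several alignments were not counted, so near-identical genes lose reads, and overlapping genes on opposite strands cannot be told apart.

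From these counts, edgeR 4.0.16 (quasi-likelihood; TMM factors; genes kept by filterByExpr, minimum count 10; Benjamini-Hochberg adjusted p of 0.05) was run in R 4.3.3 on the 5 endothelial libraries without pairing (3 residual degrees of freedom) and with batch as a block (1 degree of freedom), and DESeq2 1.42.0 without pairing as a second tool. The batch number was taken as pairing from the labels, which name batches; the deviations of log2 levels from group means correlated at r = 0.44 in batch 1 and 0.516 in batch 3. With 2 wild-type libraries this check is weak. The prior count for log2 levels was 2. The interaction with motor neurons used 11 libraries (7 degrees of freedom). Lists (41) were described by counts and medians only. The members, lists and rules were chosen with earlier results of these data known. Named genes are Plxnd1, Kdr and Pecam1, genes called by both paired edgeR and DESeq2, the 10 largest rises and falls with a mean of at least 1 CPM, list members that passed, the first 4 of each list described, and called genes within 20 Mb of Plxnd1; the genes counted by library and those of the closing section were chosen after their values were seen. Some genes that met these rules are not reported here. Scripts were tested on simulated data. Alternatives were other scalings and filters, DESeq2, a joint fit with motor neurons and leaving out each library.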

Additional observations from a re-analysis of the deposited data

Results flagged for a closer look

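In the interaction over 11 libraries with pairing, 5 genes differed between endothelial cells and motor neurons, as the endothelial less the motor neuron change. Prrt4 (1.83 ± 0.22, adjusted p = 0.0445), Col9a3 (1.22 ± 0.14, adjusted p = 0.0438) and Tenm3 (0.94 ± 0.11, adjusted p = 0.0445) were higher in the endothelial knockout. Apob (-10.97) and Adh1 (-6.24), liver genes, had motor neuron pair differences of 10.05, 0.98 and 0.92 and of 5.84, 0.98 and -0.04, so that 1 motor neuron pair carried them.

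In 11 of the 175 called endothelial genes all 3 motor neuron pairs went the other way. This was not tested except for Tenm3 and Col9a3. All 3 motor neuron pairs were down in 10 of the 138 genes that rose (7.25%) and in 10.5% of all genes, and up in 1 of the 37 that fell (2.7%) and in 12.7% of all genes. They went the same way in 39 of the 138 that rose (28.3%) and in 11 of the 37 that fell (29.7%). In 9 of the 11 genes that went the other way the endothelial paired log2 fold changes were -0.41 for Angptl4, 0.45 for Spata13, 0.50 for Sall3, 0.77 for Tenm3, 0.91 for Col9a3, 1.73 for Gm4977, 1.93 for Slc36a2, 2.04 for S100b and 2.43 for Cxcl14. The unpaired fold change of Sall3 turned to -0.47 without wild type batch 1 and to -0.41 without knockout batch 3. The last 2 and Gm4977 were over 2 times higher in knockout batch 3 than in any other library.

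Prdm6 in the regional libraries had 1 spinal library far from the other 4, at 1.59 CPM beside a median of 0.220 CPM; all spinal values stayed below the lowest meningeal value of 14.7 CPM. Chance marks about 1 in 20 groups of this size, and 12 groups were looked at.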

How the results depend on the processing

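Without pairing, edgeR called 0 genes, also with RLE scaling and at a mean of at least 5 CPM, 2 with no filter (Plxnd1 and Gm13394), 1 in the fit of 11 libraries, and 0 to 1 when each library was left out (1 without wild type batch 1). DESeq2 called 32, DESeq2 with the replicate block 52, edgeR with the replicate block 180, and the fit of 11 libraries with the block 15. The 175 genes called under pairing with both pairs of one sign became 0 with no block, 52 in DESeq2 with the block (23 of the 32 core genes), 312 with RLE scaling, 283 with no filter, 274 at a mean of at least 5 CPM, and 15 in the fit of 11 libraries (8 of the core). Without knockout batch 2 they were 159. Leaving out any other library leaves no residual degree of freedom in the paired edgeR fit, so this was not run. Further alternatives were added after the data were seen, and their counts kept only genes with both pair differences of the fold change's sign. Unpaired DESeq2 gave 59 genes without knockout batch 1, 16 without batch 2 and 24 without batch 3. Of these, 25, 15 and 21 were in the core. The paired fit of 11 libraries gave 6, 16 and 2 in the same order. The pair differences came from all 5 libraries, so for batches 1 and 3 the rule also used the library left out. Free of that rule, DESeq2 called 21 of the genes tested higher and 7 lower without knockout batch 3. The interaction gave 5 genes with the block, 1 in DESeq2, and 0 to 1 when each of the 11 libraries was left out (1 without motor neuron wild type batch 2).

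Of the genes named here that passed the paired test, 12 changed sign in some unpaired fit; the cause was not tested. Capn11, -2.49 under pairing, was at 1.22 with no block, in DESeq2 and with no filter, 1.24 with RLE scaling and 1.21 in the fit of 11 libraries. With each library left out in turn, unpaired edgeR gave -2.51 to 2.15 for Capn11, -1.53 to 9.10 for Eif2s3y, -1.18 to 0.78 for Apold1, -1.12 to 0.06 for Ccl3, -1.03 to 0.23 for Ccl4, -0.65 to 0.08 for Hba-a1, -0.75 to 0.30 for Hbb-bs, -0.58 to 1.04 for Dcc, -0.28 to 1.38 for Ntn1, -0.17 to 0.68 for Plxna2, -0.47 to 1.20 for Sall3 and -0.22 to 3.13 for Gfap. DESeq2 reversed them likewise. Without wild type batch 1 it gave 2.15 for Capn11, 0.78 for Apold1, 0.07 for Ccl3, 0.23 for Ccl4, 0.09 for Hba-a1, 0.31 for Hbb-bs, -0.26 for Dcc and for Ntn1, -0.09 for Plxna2 and -0.46 for Sall3. Without knockout batch 3 it gave 1.75 for Capn11, -0.57 for Dcc, -0.21 for Gfap, -0.03 for Ntn1, -0.16 for Plxna2 and -0.40 for Sall3. Without wild type batch 3 it gave 0.66 for Capn11 and 9.21 for Eif2s3y, and without knockout batch 1 it gave 1.78 and 0.37. Of the 3555 values of 133 named genes under alternatives, 1574 kept direction and side of the threshold, 1746 kept direction and lost the threshold, 14 gained it, 176 moved and 45 reversed. The number of wild-type libraries, 2, limits the precision.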

Other observations

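Of the genes outside the lists, 4 chemokine genes picked for having fallen in the paired test are given. Ccl2 was at 55.6 and 38.2 CPM (wild type) against 37.4, 41.6 and 16.2 CPM (knockout) (-0.88), Ccl3 at 87.9 and 39.3 CPM against 61.7, 41.0 and 18.7 CPM (-0.77), Ccl4 at 25.1 and 10.6 CPM against 19.0, 13.8 and 3.79 CPM (-0.84), and Ccl7 at 14.7 and 10.97 CPM against 10.3, 12.9 and 4.82 CPM (-0.82). In all 4 knockout batch 3 was the lowest library and the groups overlapped. Without wild type batch 1 the unpaired log2 fold changes of Ccl3 and Ccl4 turned to 0.06 and 0.23. The 12 macrophage and microglia markers summed to 1254, 1177, 1403, 1015 and 1050 CPM, and their part in these values was not tested.

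A further 4 genes outside the lists, picked after their values were seen, rose with groups apart. Col14a1, a fibril-associated collagen, was at 74.6 and 96.2 CPM against 119, 162 and 182 CPM (0.80), Col12a1, a collagen of tendon and fascia, at 262 and 317 CPM against 324, 464 and 596 CPM (0.61), Smoc2 at 11.95 and 11.98 CPM against 18.2, 33.5 and 23.9 CPM (0.80) and Scube3, a secreted signalling protein, at 52.2 and 69.0 CPM against 80.2, 97.8 and 118 CPM (0.69).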
